A study of Solanum lycopersicum with 12 samples.

Results

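The genes described here are the tomato xyloglucan endotransglucosylases/hydrolases, with the symbols XTH or XET, and Xegip, which encodes a xyloglucanase inhibitor. Their probe sets were taken by gene symbol or synonym in the annotation of the array, which gave 10 genes on 12 probe sets, out of 802 named genes and 10101 probe sets tested. RNA of root sectors was hybridised to 12 GeneChip Tomato Genome Arrays after the sectors had been cut out by laser capture microdissection (LCM), a method that lifts chosen cells from a tissue section. Line 4 (L4), a transgenic line, and wild-type plants (WT, var. Beta) were each sampled in 2 sectors, the outer root with epidermis and cortex (EC) and the inner stele (S), with 3 arrays for each of the 4 groups. L4 carries 35S:AtHMA4, an Arabidopsis Zn exporter behind a viral promoter that is active in most tissues, and it is 1 transgenic line, so effects of the transgene and of that line cannot be told apart; the level of the transgene was not analysed here. All plants of both genotypes received 5 µM Zn, given in the labels as a treatment of 15 days that ended when the plants were 25 days old, while the study's methods give a shorter exposure. The roots of several plants were pooled in each experiment, and the EC and S arrays of a genotype with the same replicate number were taken as 1 root pool. In tissue pools of this kind, fewer cells of a type and less transcript per cell cannot be told apart.

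Xyloglucan is a main hemicellulose bound to the cellulose microfibrils in the primary wall of tomato and other dicots. XTH proteins cut a xyloglucan chain and join the new end to another chain, or in some members to water, and they act during wall loosening, wall reinforcement and the growth of root cells. Xegip was described in tomato as a secreted protein that binds and inhibits a fungal xyloglucan-specific endoglucanase, so it is an inhibitor of a fungal enzyme and not a known inhibitor of the plant XTH proteins.

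Values are log2 signals per probe set as the authors processed them. Since each probe set has its own affinity, levels were compared between arrays and not between genes. Members of this family are similar in sequence, and signal from a related transcript on a probe set was not tested. The medians of the 12 arrays lay between 3.72 and 4.02. Replicate 2 of the L4 EC stood apart, with a mean of 13.9 over the 27 spike-in probe sets, against 9.65 to 12.4 on the other 11 arrays, and an SD of 3.04 over all probe sets, against 3.32 to 3.48. WT S replicate 3 (12.4) and L4 S replicate 3 (11.9) had the next highest spike-in means. On all 12 arrays, control probe sets at the 3' end of a transcript gave a higher log2 signal than those at its 5' end. The difference was 7.63 to 10.45 for actin, 7.52 to 10.97 for GAPDH and 1.31 to 3.82 for ubiquitin. How far such a 3' bias, and its variation between arrays, bears on the probe sets of the members was not tested. Marker genes separated the sectors only weakly: 5 of 6 markers of epidermis and cortex and 2 of 3 stele markers had the higher mean in the EC over both genotypes, and none of the 9 was called. The EC markers FRO1 (1.95 to 2.42 over the arrays) and ext1 (2.32 to 3.94) and the stele marker SUT4 (2.40 to 3.52) lay near background, so their direction says little. The sector labels thus have little support from these markers, and those near background could not test them.

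No gene of the family passed the threshold for a called change, at least 1.2-fold at an adjusted p under 0.05, in any comparison. Neither did any other probe set of the array: 0% of the 10101 were called for L4 against WT in the EC, in the S or averaged over both sectors, or for the EC against the S in L4, in WT or over both genotypes, or for the difference of the genotype effect between sectors. The measurements therefore describe levels with wide intervals, and each difference below is given as a value that was not called. At an unadjusted p under 0.05 and at least 1.2-fold, limma gave 1 of the 10 genes as higher in L4 in the EC, XTH16, against 2.26% of all probe sets, and 1 as lower, XTH5, against 4.83%. In the S it gave 1 gene as lower in L4, XTH3, against 1.32%. For the average of the sectors it gave 1 as higher, XTH16, against 2.42%, and 3 as lower, XTH3, XET2 and XTH5, against 4.5%. Alternative fits were recorded in every comparison for XTH3, XTH5, XTH16, XET2 and Xegip. For XTH1, LeXTH9 and XTH6 they covered L4 against WT in each sector and the EC against the S over both genotypes. XET4 and XTH7 were left out of them. Within that scope, members were called only with limma's array weights. In the fit on group means these gave replicate 2 of the L4 EC a weight of 0.067 and replicate 3 a weight of 4.97, and their estimation did not converge. With these weights 14.5% of all probe sets were called in the EC, among them XTH5 (-4.07, adjusted p = 0.0104), XTH3 (-1.61, adjusted p = 0.0344) and XET2 (-2.11, adjusted p = 0.0348), and 1.61% were called for the average of the sectors, among them XTH16 (0.87, adjusted p = 0.0418).

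**Figure D1:**
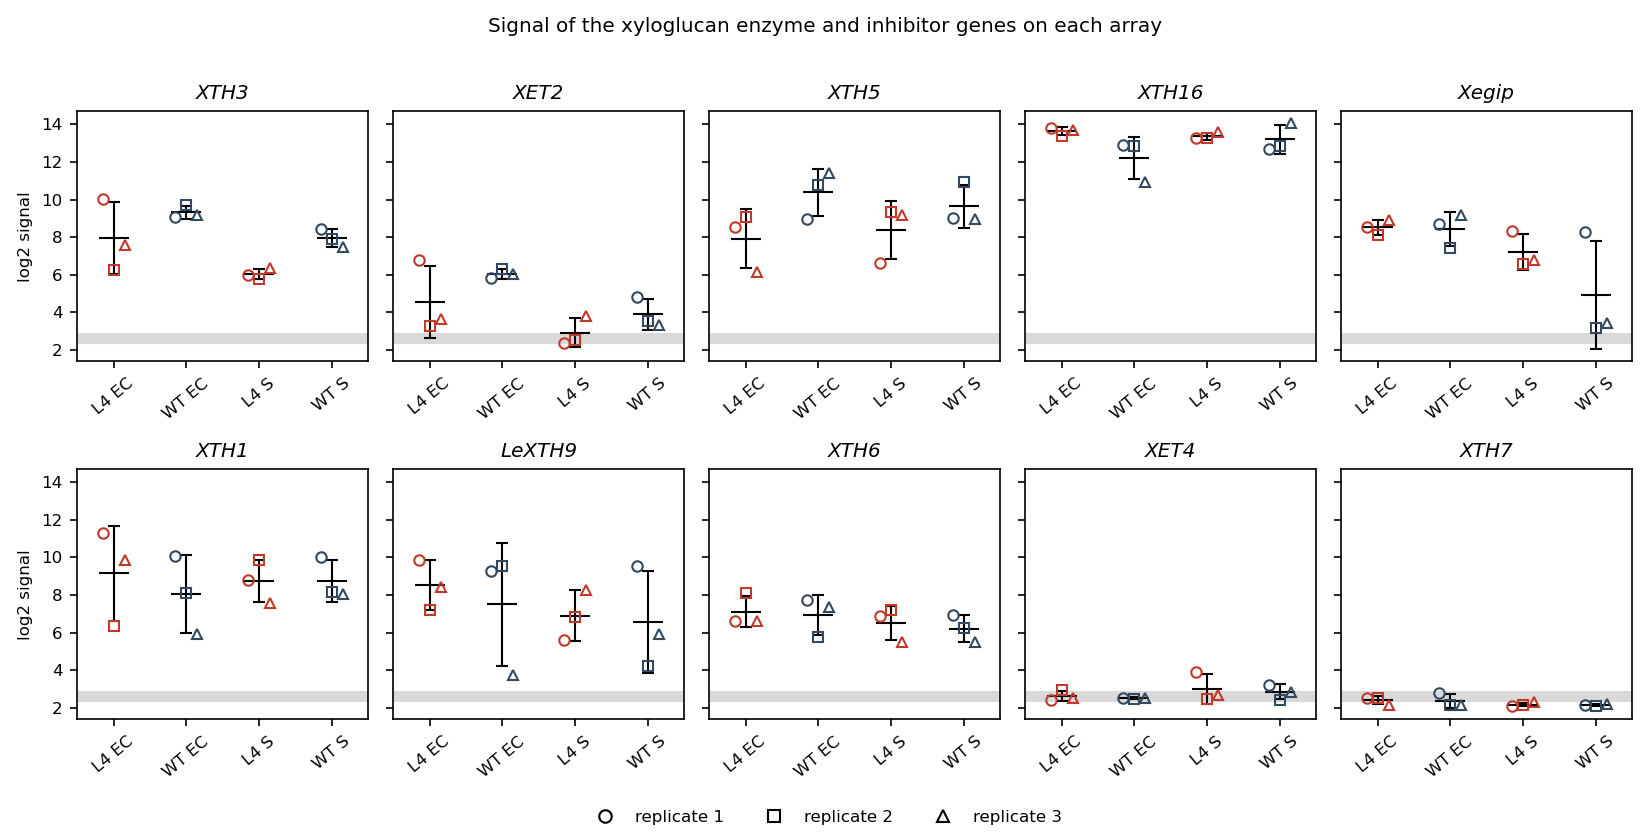
Log2 signal (vertical axis) of each of the 10 genes on each of the 12 arrays, by group (horizontal axis). Red symbols are L4 and blue symbols WT, the symbol shape gives the replicate, black lines give the mean ± SD (n = 3), and the grey band spans the lower quartiles of the 12 arrays, 2.37 to 2.81. In XTH3 the 3 L4 S arrays lie below the 3 WT S arrays, in XTH16 the 3 L4 EC arrays lie above the 3 WT EC arrays, and XET4 and XTH7 stay near the grey band.

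XTH3 (probe set Les.4353.1.S1_at), an endotransglucosylase/hydrolase gene, had the lower mean in L4 in both sectors. In the EC the values were 10.03, 6.26 and 7.56 in L4, against 9.08, 9.72 and 9.19 in WT. Replicate 1 of L4 exceeded all WT arrays and the other two L4 arrays were below them, so the groups overlapped. In the S the values were 5.99, 5.79 and 6.33 in L4, against 8.45, 7.91 and 7.49 in WT, and here all 3 L4 arrays were below all 3 WT arrays. L4 arrays all below the WT arrays were found in the S for 1 of the 10 genes and for 2.48% of all probe sets. The change was -1.38 ± 0.77 (SE) in the EC (adjusted p = 0.715) and -1.92 ± 0.77 in the S (adjusted p = 1.00). The S value is a 3.77-fold lower mean in L4 with a 95% confidence interval of -3.66 to -0.17. That interval rests on a spread pooled over the 4 groups. The SD was 1.92 for L4 EC, 0.34 for WT EC, 0.27 for L4 S and 0.48 for WT S. With only the 6 stele arrays fitted, the change of -1.92 had an SE of 0.30 and was still not called. With only the 6 EC arrays fitted, the SE of the EC change was 0.99. The averages of both sectors per root pool were 8.01, 6.02 and 6.94 in L4, against 8.77, 8.82 and 8.34 in WT, with no overlap and a change of -1.65 ± 0.52 (adjusted p = 0.598). Pool averages of L4 all below those of WT occurred for 2 of the 10 genes, XTH3 and XET2, and for 5.46% of all probe sets. The change in the EC depended on which L4 array was used: it was -0.53 without L4 EC replicate 2, the array with the highest spike-in signal, and -2.42 without replicate 1. A fit with the spike-in mean as covariate gave -0.64, and over the 12 arrays the signal of XTH3 and the spike-in mean had a Pearson r of -0.50. The average was -1.16 without L4 pool 2. The change in the S stayed between -2.15 and -1.66 when any 1 array was left out, and was -2.29 without the 3 arrays of highest spike-in signal.

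XET2 (Les.3697.1.S1_at), another endotransglucosylase gene, had a pattern over the arrays close to that of XTH3. Its values in the EC were 6.76, 3.25 and 3.65 in L4 and 5.79, 6.32 and 6.02 in WT, and in the S they were 2.38, 2.53 and 3.80 in L4 and 4.83, 3.50 and 3.33 in WT. The groups overlapped in both sectors, in the EC through L4 replicate 1 and in the S through L4 replicate 3. The change was -1.49 ± 0.86 in the EC (adjusted p = 0.715), -0.98 ± 0.86 in the S (adjusted p = 1.00) and -1.24 ± 0.46 as the average (adjusted p = 0.669). As for XTH3, the EC value rested on single arrays, at -0.84 without L4 EC replicate 2 and -2.60 without replicate 1, and the average was -0.82 without L4 pool 2. In the S, L4 replicates 1 and 2 lay close to the lower quartile of their arrays, 2.37 and 2.40, so background may limit the size of the S change and of the average. A fit with the spike-in mean as covariate gave -0.90 in the EC, and over the 12 arrays the signal of XET2 and the spike-in mean had a Pearson r of -0.41.

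XTH5 (Les.4523.1.S1_at), also an endotransglucosylase/hydrolase gene, had the lowest change of the family in the EC. Its EC values were 8.53, 9.08 and 6.11 in L4, against 8.95, 10.78 and 11.40 in WT. Only L4 replicate 2 and WT replicate 1 crossed. Its S values were 6.61, 9.33 and 9.19 in L4, against 9.01, 10.95 and 8.95 in WT, with the groups overlapping. The change was -2.47 ± 1.06 in the EC (adjusted p = 0.683), a 5.53-fold lower level in L4 with a 95% confidence interval of -4.85 to -0.08. In the S it was -1.26 ± 1.06 (adjusted p = 1.00), and the average was -1.86 ± 0.67 (adjusted p = 0.661). Without L4 EC replicate 3 the EC change was -1.57, and without L4 S replicate 1 the S change was -0.37. Without L4 EC replicate 2 the EC change was -3.05.

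XTH16, the member with 3 probe sets, had the higher mean in L4 in both sectors on its main probe set. On Les.4008.1.S1_a_at, the probe set with the highest mean, the EC values were 13.80, 13.40 and 13.72 in L4, against 12.90, 12.83 and 10.93 in WT. All 3 L4 arrays were above all 3 WT arrays, as for 1 of the 10 genes in the EC and 5.98% of all probe sets. In the S the values were 13.28, 13.27 and 13.59 in L4, against 12.69, 12.83 and 14.10 in WT, where WT replicate 3 exceeded every L4 array. The change was 1.42 ± 0.54 in the EC (adjusted p = 0.629), 2.68-fold with a 95% confidence interval of 0.21 to 2.63, and 0.17 ± 0.54 in the S (adjusted p = 1.00). WT replicate 3 was the lowest of the EC arrays and the highest of the S arrays, 3.17 lower in the EC than in the S of the same pool, so the pool averages were close, at 13.54, 13.33 and 13.66 in L4 and 12.80, 12.83 and 12.51 in WT. The L4 averages were all above the WT averages, as for 1 of the 10 genes and 4.05% of all probe sets. The change of these averages was 0.80 ± 0.15 (adjusted p = 0.332), which placed the probe set at rank 88 of 10101 by p. Without WT EC replicate 3 the EC change was 0.77, and without WT S replicate 3, whose spike-in signal was also high, the S change was 0.62.

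The other probe sets of XTH16 gave a smaller change in the EC and a negative one in the S. Les.4008.1.S1_at had EC values of 10.93, 9.95 and 11.45 in L4 and 10.09, 10.39 and 8.08 in WT, which overlapped, and a change of 1.25 ± 0.71, against -0.24 ± 0.71 for the S. Les.4008.2.S1_at had EC values of 4.83, 3.62 and 5.92 in L4 and 3.61, 5.30 and 3.66 in WT, and changes of 0.60 ± 0.89 and -0.32 ± 0.89. Averaged over the sectors, these changes were 0.51 ± 0.28 and 0.14 ± 0.57, at ranks 1453 and 8573 by p. Over the 12 arrays, the first probe set correlated with the second at a Pearson r of 0.93 and with the third at 0.60. All 3 probe sets showed the highest S signal in WT replicate 3, and 2 of the 3 showed the lowest EC signal there.

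**Figure D2:**
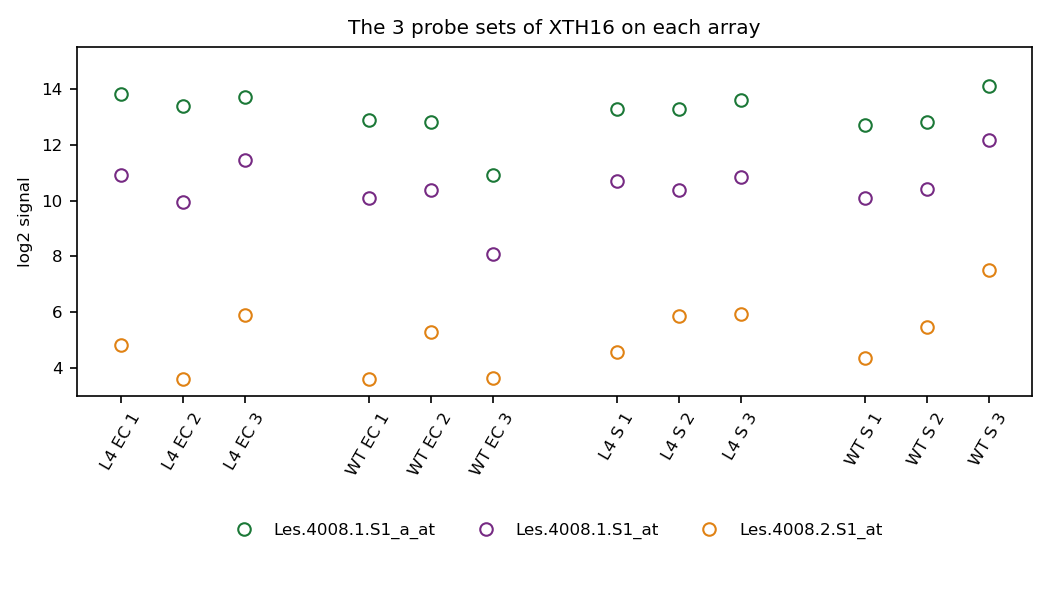
Log2 signal (vertical axis) of the 3 probe sets of XTH16 on each array (horizontal axis, group and replicate). The L4 EC arrays lie above the WT EC arrays for Les.4008.1.S1_a_at (13.40 to 13.80, against 10.93 to 12.90) and overlap with them for the other probe sets; levels of different probe sets are not comparable.

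Of the remaining enzyme genes, XTH1 (Les.3590.1.S1_at), LeXTH9 (Les.4530.1.S1_at) and XTH6 (Les.4522.1.S1_at) varied widely within groups. LeXTH9 was found through its synonym and is not the gene that now bears the symbol XTH9. XTH1 had EC values of 11.29, 6.36 and 9.84 in L4 and 10.08, 8.09 and 5.94 in WT, a change of 1.12 ± 1.38, and a change of -0.01 ± 1.38 in the S. The EC change of XTH1 ran from 0.06 without L4 EC replicate 1 to 2.53 without L4 EC replicate 2, and it was 2.38 with the spike-in covariate. LeXTH9 ranged from 3.71 to 9.88 over the 12 arrays, with both WT sectors holding high and low arrays. In the EC its change was 1.01 ± 1.77, and in the S 0.34 ± 1.77. XTH6 kept to a narrower range, 5.48 to 8.08, with changes of 0.17 ± 0.68 and 0.29 ± 0.68. For these 3 genes the groups overlapped in both sectors, and leaving out single arrays turned the sign in the EC for LeXTH9 and XTH6 and in the S for all 3.

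XET4 (Les.3125.1.S1_at) and XTH7 (Les.4529.1.S1_at) gave little signal on these arrays, which is not shown to mean little transcript in the roots. XET4 ranged from 2.41 to 3.89, with its highest value in L4 S replicate 1. XTH7 ranged from 2.07 to 2.77 and was below the lower quartile of the array on 10 of the 12 arrays. Their signals lay near background, so their changes are left out of the text and of the plots of changes.

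Xegip (Les.4026.1.S1_at), the inhibitor gene, showed no difference between the genotypes in the EC beyond the spread of the arrays, and a wide spread in the S. In the EC the values were 8.56, 8.10 and 8.91 in L4, against 8.71, 7.42 and 9.17 in WT. In the S they were 8.32, 6.54 and 6.76 in L4, against 8.26, 3.14 and 3.41 in WT. The WT S replicates 2 and 3 were the lowest of all 12 arrays, whereas WT S replicate 1 was within the L4 range. The change was 0.09 ± 1.22 in the EC (adjusted p = 0.978), with a 95% confidence interval of -2.65 to 2.83, and 2.27 ± 1.22 in the S (adjusted p = 1.00), a 4.84-fold higher mean in L4. The S value was 3.94 without WT S replicate 1, 1.38 without WT S replicate 2 and 0.35 with array weights. The average over both sectors was 1.18 ± 0.87 (adjusted p = 0.916), with 2.08 without WT pool 1 and 0.48 without WT pool 2.

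**Figure D3:**
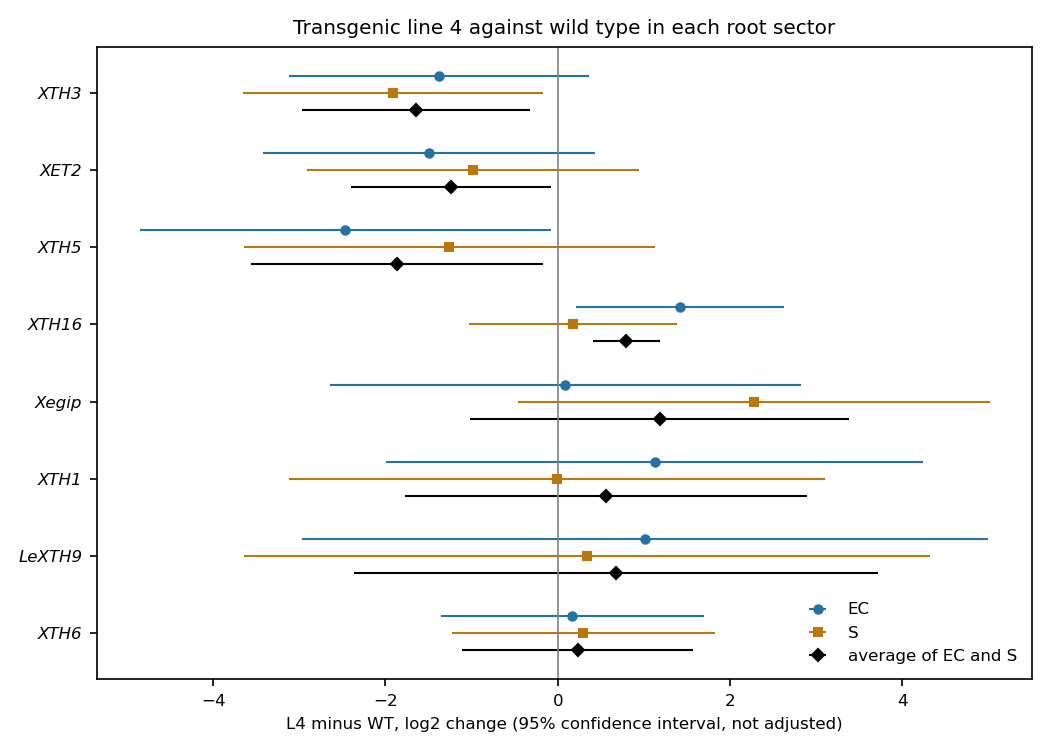
Change of L4 against WT (horizontal axis, L4 minus WT on the log2 scale) of 8 genes, without XET4 and XTH7 (vertical axis), in the EC (circles), in the S (squares) and averaged over both sectors (diamonds). Lines are 95% confidence intervals, not adjusted for the number of probe sets; within a sector those of XTH3 in the S (-3.66 to -0.17), XTH5 in the EC (-4.85 to -0.08) and XTH16 in the EC (0.21 to 2.63) leave out 0, and none of these genes was called.

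Without XET4 and XTH7, left out after their values were seen, 5 of the 8 genes had a positive change in the EC (median 0.13, against 0.08 over all probe sets) and 4 of the 8 in the S (median 0.08, against -0.01). The effect of the genotype was also compared between the sectors. The difference, the change in the EC minus the change in the S, was -2.19 ± 1.46 for Xegip, 1.25 ± 0.97 for XTH16, -1.21 ± 1.47 for XTH5, 0.54 ± 1.01 for XTH3 and -0.51 ± 1.32 for XET2 (adjusted p = 0.983 for each). For XTH16 it was 0.15 without either array of WT pool 3. For Xegip it ran from -3.71 without either array of WT pool 1 to -1.06 without either array of WT pool 3. For XTH3, XET2 and XTH5 its sign turned when single arrays were left out. At an unadjusted p under 0.05 limma gave 0 of the 10 genes and 2.4% of all probe sets, so for no member was the difference between the genotypes shown to be unequal in the 2 sectors.

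Between the sectors, XTH3, XET2 and Xegip had the higher mean in the EC in both genotypes. For XTH3, the EC minus S difference within a pool was 4.04, 0.47 and 1.23 in L4 and 0.63, 1.81 and 1.70 in WT. It was above 0 in 6 of 6 pools, as for 1.44% of all probe sets. Its mean was 1.65 ± 0.51 (adjusted p = 1.00), with 1.91 ± 0.72 in L4 (adjusted p = 0.950) and 1.38 ± 0.72 in WT (adjusted p = 1.00). The L4 value rested largely on pool 1. It was 0.85 with either array of L4 pool 1 left out and 2.64 with either array of L4 pool 2 left out. Sectors were compared within pools, so leaving out an array took its whole pool out of the estimate.

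XET2 was higher in the EC in 5 of 6 pools, a share that 10.1% of all probe sets reached or passed. The differences were 4.38, 0.72 and -0.15 in L4 and 0.96, 2.82 and 2.69 in WT, with a mean of 1.90 ± 0.66 (adjusted p = 1.00). In L4 it was 1.65 ± 0.93, and in WT 2.16 ± 0.93. In WT the EC arrays of XTH3 and XET2 were all above the S arrays, a pattern of 2 of the 10 genes, against 3.32% of all probe sets. In L4 0 of the 10 genes separated the sectors in either direction, against 4.83% of all probe sets. With either array of L4 pool 1 left out, the XET2 difference in L4 was 0.28. Since the S values of L4 pools 1 and 2 lay near the lower quartile, the L4 differences of XET2 may be limited by background and are not exact.

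For Xegip the differences were 0.24, 1.55 and 2.15 in L4, against 0.46, 4.28 and 5.76 in WT, and they were above 0 in 6 of 6 pools. The mean was 1.31 ± 1.03 in L4 (adjusted p = 0.950) and 3.50 ± 1.03 in WT (adjusted p = 1.00), 11.3-fold, and 2.41 ± 0.73 over both genotypes (adjusted p = 1.00). The WT value was 2.37 with either array of WT pool 3 left out, and 5.02 with either array of WT pool 1 left out. At an unadjusted p under 0.05, limma gave XTH3 in L4 as higher in the EC (1 of 10, against 1.17% of all probe sets), likewise Xegip in WT (1 of 10, against 1.62%), and XTH3, XET2 and Xegip over both genotypes (3 of 10, against 1.29%). The other members gave smaller differences over both genotypes, of 1.29 ± 1.13 for LeXTH9, 0.68 ± 0.36 for XTH6, 0.14 ± 0.73 for XTH5, -0.15 ± 0.91 for XTH1 and -0.37 ± 0.49 for XTH16. The XTH16 value came from WT pool 3 alone, since the difference was at most 0.52 in size in the other 5 pools. With either array of WT pool 3 left out, the XTH16 value was 0.18.

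**Figure D4:**
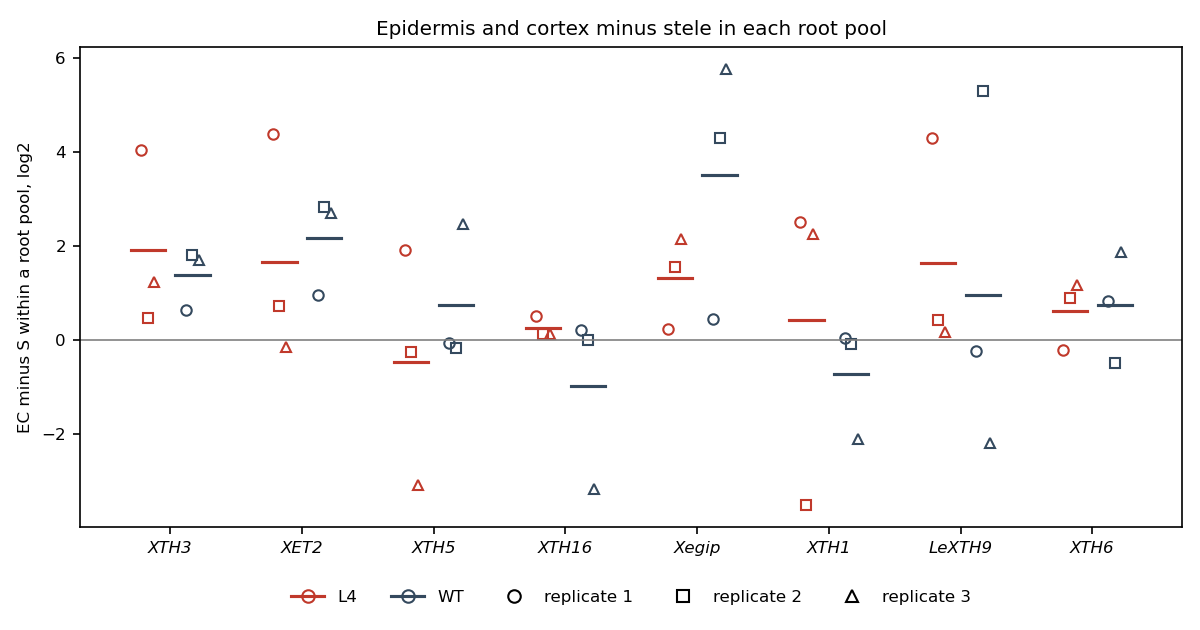
EC minus S within each root pool (vertical axis, log2 scale) for 8 genes, without XET4 and XTH7 (horizontal axis). Red symbols are L4 pools and blue symbols WT pools, the shape gives the replicate, and short lines are the means of 3 pools; XTH3 and Xegip lie above 0 in all 6 pools, and XTH16 lies near 0 except for WT replicate 3.

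The order of the 4 group means differed among the genes. XTH3 averaged 7.95 ± 1.92 in the L4 EC and 9.33 ± 0.34 in the WT EC, and 6.04 ± 0.27 in the L4 S and 7.95 ± 0.48 in the WT S (SD, n = 3 each). Its order from low to high was L4 S, L4 EC, WT S and WT EC, and of these neighbours only the 2 WT sectors did not overlap. XET2 ran from L4 S through WT S and L4 EC to WT EC, with all neighbours overlapping. XTH5 ran from L4 EC through L4 S and WT S to WT EC, and XTH16 had the same order of groups from high to low, L4 EC, L4 S, WT S and WT EC, again with overlap between all neighbours. Xegip ran from the highest mean in L4 EC through WT EC and L4 S to the lowest in WT S, with all neighbours overlapping. Across the 12 arrays XTH5 and XTH16 had a Pearson r of -0.61, which was -0.38 for deviations from the group means.

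XTH3 and XET2 varied together from array to array more than any other pair of the family. Their Pearson r was 0.94 over the 12 arrays, 0.94 over 11 arrays without L4 EC replicate 2, and 0.93 for deviations from the group means. The other pairs of members lay between -0.61 and 0.61. Of 792 named genes outside the family, the gene most like both was tXET-B2 (Les.429.1.S1_at), a further xyloglucan endotransglucosylase that the symbol rule did not take, with an r of 0.90 to XTH3 and 0.88 to XET2. tXET-B2 had EC values of 10.05, 5.88 and 6.36 in L4 and 8.48, 7.54 and 8.69 in WT, and S values of 5.26, 5.39 and 6.34 in L4 and 8.82, 7.78 and 6.33 in WT. As for XTH3 and XET2, L4 EC replicate 1 was its highest array. In the S its change was -1.98 ± 1.04. In the EC it was -0.80 ± 1.04, and -0.03 without L4 EC replicate 2. These correlations share their RNA samples and arrays, and signal shared between similar sequences was not tested.

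**Figure D5:**
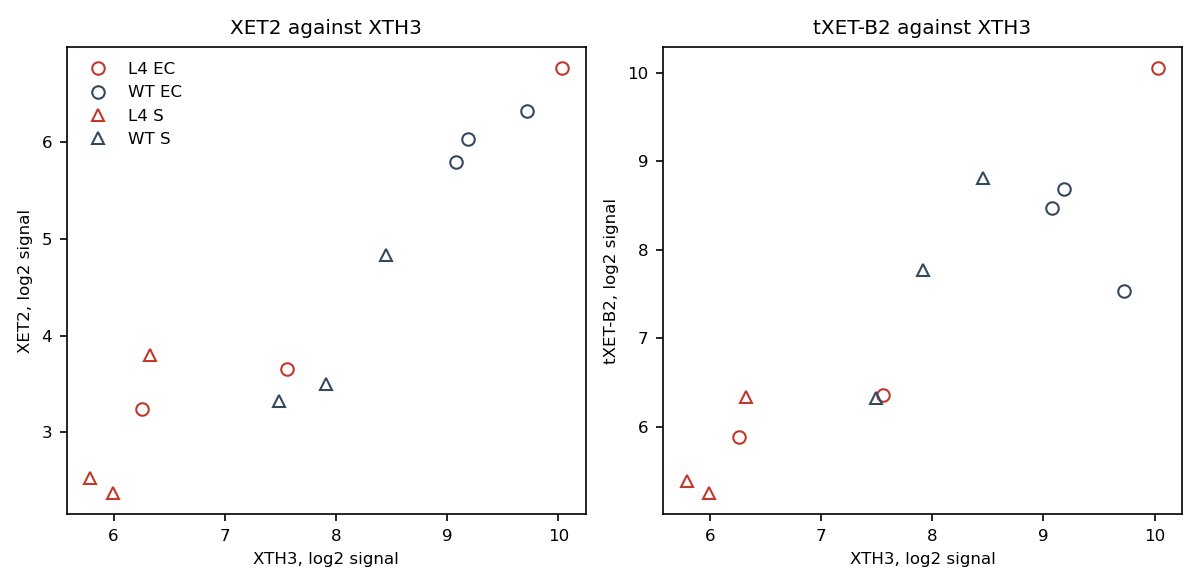
Log2 signal of XET2 (left, vertical axis) and of tXET-B2 (right, vertical axis) against that of XTH3 (horizontal axes) on the 12 arrays. Red symbols are L4 and blue symbols WT, circles are EC and triangles S; the r over the 12 arrays is 0.94 for XET2 and 0.90 for tXET-B2.

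The 2 named genes most like each member, out of 792 and over the same 12 arrays, were otherwise of mixed function. For XTH3 the second was CBF1, a transcription factor of the cold response (0.85), and for XET2 it was IAA17, an auxin response repressor (0.85). XTH5 was closest to CCH, a copper chaperone (r = 0.95), whose EC values were 10.21, 10.50 and 9.58 in L4 and 10.49, 11.59 and 12.12 in WT, and next to THT1-3, a tyramine hydroxycinnamoyltransferase (0.89). The r of XTH5 and CCH was 0.92 for deviations from the group means. XTH16 was closest to CDKA1, a cyclin-dependent kinase of the cell cycle (0.85), and then to LOC544060 (0.77). Xegip was closest to LOC543836 (0.83) and to GABA-TP2, a transaminase of 4-aminobutyrate (0.79). LeXTH9 was closest to the expansin gene exp11 (0.87) and to ERF-H1, of the ethylene response factor family (0.85). For XTH1 the closest were LOC778302 (0.89) and AO1 (0.87). For XTH6 the closest were Dea1 and GABA-TP2, at 0.67 each. The closest genes to XET4, LOC543730 (0.87) and LOC100037517 (0.86), and to XTH7, LOC543694 (0.88) and DFR (0.83), were matched to signals near background.

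Genes of other wall proteins were counted from lists of 12 expansins, which loosen walls without cutting chains, 7 beta-galactosidases, 6 endo-1,4-beta-glucanases, 1 extensin and tXET-B2. None of these 27 genes was called by limma in any comparison. At an unadjusted p under 0.05 and at least 1.2-fold, limma gave 0 of them for L4 against WT in the EC, against 2.26% of all probe sets as higher and 4.83% as lower. In the S it gave 0, against 1.32% of all probe sets as lower. For the average of the sectors it gave 1 as lower, against 4.5%. Over both genotypes it gave 2 as lower in the EC than in the S. No share over all probe sets is given for that direction, so nothing is read from this count. In the EC 14 of the 27 had a positive change, with a median of 0.21, and in the S 17 of 27, with a median of 0.08. The expansins had a positive change in 8 of 12 in the EC and in 9 of 12 in the S, and the beta-galactosidases in 2 of 7 and 5 of 7. For the EC against the S over both genotypes, 13 of the 27 were positive with a median of -0.20, and the median over all probe sets was 0.02.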

How the data were processed

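RNA from laser-captured root sectors was amplified, labelled and hybridised to 12 GeneChip Tomato Genome Arrays. The authors deposited 1 log2 signal per probe set and array, made with Affymetrix GeneChip Command Console; the summarisation and normalization steps are not given in the sources used. The 12 value columns all entered the fits, and the number of arrays, 3 per group, limits the precision.

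After 108 controls were removed from 10209 probe sets, 10101 were tested without a filter on signal. Symbols come from the platform annotation, of which 885 entries were matched by gene identifier to current symbols and synonyms. This left 9192 tested probe sets unnamed. Where a gene had several probe sets, the one with the highest mean stands for it. The files name no genome build, so no coordinates are given. No sequence of the members is printed, because no sequence table was used here.

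lmFit and eBayes of limma 3.58.1 (R 4.3.3) gave the tests, with Benjamini-Hochberg adjustment over all 10101 probe sets. L4 against WT in each sector was fitted on group means of all 12 arrays (8 residual degrees of freedom), their average on the 6 root pool averages (4), and sector differences with the root pool as a block (4). A change was called at an adjusted p under 0.05 and at least 1.2-fold, the study's thresholds. Pairing of sectors within a pool comes from the series' description of 3 root batches. Deviations from the group means of the 2 sectors correlated at 0.03, -0.16 and -0.27 in the L4 pools and at 0.63, 0.17 and 0.06 in the WT pools. Each p-value sets a change against the spread between arrays within groups, between root pool averages, or between the sector differences of pools, according to the fit.

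Named genes are all members, the 2 named genes of highest Pearson r to each, tXET-B2, and any called gene of the other wall lists (there was none). The members, lists, tests and alternatives were chosen with earlier results of these data known. Alternatives were the replicate block, no pool block, a random pool block, only the 6 arrays of a sector, median centring, quantile normalization, probe sets of mean log2 4 or more only, trend and robust moderation, array weights, spike-in signal as a covariate, a 2-fold threshold and leaving out each array. After the data were seen, the other XTH16 probe sets and leaving out the 3 arrays of highest spike-in signal were added. The functions were tested on simulated arrays. Plots were made in Python 3.11.15 (matplotlib 3.10.9).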

Additional observations from a re-analysis of the deposited data

How the results depend on the processing

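With 3 arrays per group the intervals are wide, and most limits come from single arrays. Of 403 values of named genes under alternatives other than leaving out an array, 381 kept their sign and their side of the threshold, 18 turned sign and 4 became called; of 534 values with 1 array or pool left out, 499 kept both and 35 turned sign. The cause was not tested for any of these. Many of these values could not turn sign, so the counts do not measure how stable the values are. The block, single-sector, signal filter and moderation alternatives changed the spread and not the estimate. Leaving out an array of one sector left the change in the other as it was, and both arrays of a pool gave the same sector difference. XET4 and XTH7 were not counted, and XTH1, LeXTH9, XTH6 and tXET-B2 only in some comparisons.

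Probe sets called over the whole array, 0 in each comparison, became 1 for L4 against WT in the EC with only the 6 arrays of the sector. For the average of the sectors they became 2 with median centring and 3 among probe sets of mean log2 4 or more. With array weights they became 1467 in the EC, 2 in the S and 163 for the average, and without the 3 arrays of highest spike-in signal 8 (EC) and 7 (S). With 1 array left out they ranged from 0 to 10 in the EC, from 0 to 3 in the S and, with 1 pool left out, from 0 to 9 for the average, and stayed at 0 in the 4 comparisons that involve sectors.

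Signs of the members turned as follows. XTH1 in the S was 0.00473 with quantile normalization, 0.022 with median centring, 0.00399 with the spike-in covariate and 0.22 without the 3 arrays, and its EC minus S average was 0.066 with quantile normalization and 0.89 with array weights. With array weights LeXTH9 in the S was -1.79, the EC minus S value was 0.59 for XTH5 in L4 and 0.14 for XTH16 on average, and the difference of the genotype effect between sectors was 1.37 for XET2 and 0.49 for XTH5. With the spike-in covariate tXET-B2 in the EC was 0.067 and XTH16 EC minus S in L4 was -0.00600. Without the 3 arrays XTH6 in the EC was -0.31 and LeXTH9 in the S was -0.68. The other XTH16 probe sets gave -0.24 and -0.32 in the S, and the third gave -0.68 for EC minus S in L4.

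With 1 array left out, the values that turned sign ranged as follows. L4 against WT in the EC ranged from -0.42 to 0.46 for Xegip, from -0.44 to 0.56 for XTH6 and from -0.88 to 2.02 for LeXTH9, and in the S from -0.57 to 0.63 for XTH1, from -0.083 to 0.62 for XTH16, from -0.061 to 0.81 for XTH6 and from -0.82 to 1.83 for LeXTH9. The difference between sectors ranged from -1.88 to 0.39 for XET2, from -0.53 to 1.26 for XTH3 and from -2.40 to 0.10 for XTH5. EC minus S ranged from -1.66 to 0.84 for XTH5 in L4, from -0.12 to 1.2 for XTH5 and from -1.59 to 0.10 for XTH16 in WT, and on average from -0.67 to 0.83 for XTH1, from -0.67 to 0.18 for XTH16 and from -0.46 to 0.79 for XTH5.

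The replicate numbers were not taken to pair the genotypes. Deviations of same-numbered arrays of L4 and WT correlated at 0.28, -0.10 and -0.05 in the EC and at 0.07, 0.30 and 0.38 in the S. The S values were above those between the sectors of the L4 pools (0.03, -0.16 and -0.27). Whether same-numbered arrays of the genotypes shared an experiment was not tested. With the replicate block 0 probe sets were called for L4 against WT in the EC, in the S and on average, and the XTH16 average was 0.80 with an adjusted p of 0.464. With no replicate block 0 were called between sectors. The 2-fold threshold, the random pool block and the trend and robust moderation also gave 0 calls.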
